A study of Homo sapiens with 24 samples.

Results

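The genes described here are 46 glycosyltransferases of the secretory pathway, among 13236 gene groups in the count tables. They were taken by symbol: the ALG genes and DPAGT1, the MGAT genes, the B4GALT and B3GNT genes, the GALNT genes and EOGT. The rule also admits B3GALT genes, which were not analysed here, and ALG1L, a shorter relative of ALG1 that was kept apart from the families. The authors' classes mark 15 bins in 12 of these genes as detained introns, out of 4769 detained-intron bins in 3150 genes. A detained intron is one that stays in a polyadenylated transcript held in the nucleus.

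Glycosyltransferases move a sugar from an activated donor to a lipid, a protein or a growing glycan. N-glycosylation starts on the lipid dolichol: DPAGT1 and the ALG enzymes build an oligosaccharide on it, first on the cytosolic face of the endoplasmic reticulum and then in its lumen, and the finished glycan is moved to asparagine residues of new proteins. In the Golgi the MGAT enzymes add N-acetylglucosamine branches from UDP-GlcNAc and the B4GALT enzymes add galactose, while the GALNT enzymes start mucin-type O-glycans and B3GNT enzymes extend chains of several kinds. EOGT adds O-GlcNAc to extracellular domains within the endoplasmic reticulum. It is distinct from OGT, which adds O-GlcNAc to proteins of the nucleus and cytosol and draws on the same donor, UDP-GlcNAc.

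RNA came from HEK293T, a human cell line derived from embryonic kidney that carries the SV40 large T antigen, and polyadenylated transcripts were sequenced with a stranded kit. One experiment compared 10 µM OSMI-2, which blocks OGT, with the solvent DMSO after 2 h and 6 h. The other compared 5 µM TMG, which blocks the enzyme that removes O-GlcNAc (OGA, in the tables as MGEA5), with DMSO at the same times. Each of the 4 drug groups had DMSO libraries of its own, so the drug comparisons share no library. The labels list 24 samples, 3 in each of 8 groups. The tables hold 23 libraries, called a, b and c after the letters of their columns, since OSMI-2 at 6 h had libraries a and b and a further one was not analysed here. The labels do not say that libraries of a group came from separate cultures, so p-values measure the spread between these libraries, which may be technical. In these bulk samples fewer cells that express a gene and less RNA per cell cannot be told apart.

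Total counts ran from 39465746 to 100161560 per library, and were greater in the OSMI-2 libraries than in any DMSO library of that experiment. Counts-per-million values (CPM) were scaled by TMM, edgeR's factor between libraries. Of the 6 markers listed for the line, VIM (306 to 787 CPM) and CDH2 (30.0 to 141 CPM) were well expressed in all libraries, LIN28B and INA at least at 4.06 and 7.71 CPM, and PAX2 and NEFM at no more than 4.20 CPM. Markers of blood, liver, squamous epithelium, fibroblasts, endothelium and podocytes (PTPRC, ALB, KRT5, COL1A2, PECAM1 and NPHS1) had no gene group of their own among those counted, so they have no level here. OGT stood at 62.4, 83.1 and 41.8 CPM with OSMI-2 for 2 h against 41.4, 54.3 and 30.7 CPM with DMSO (log2 fold change 0.57, edgeR adjusted p = 1.0). It stood at 65.5 and 42.7 CPM with OSMI-2 for 6 h against 289, 128 and 170 CPM with DMSO (log2 fold change -1.86, edgeR adjusted p = 0.000379), and MGEA5 at 255, 265 and 260 CPM with TMG for 6 h against 148, 160 and 166 CPM (0.72, adjusted p = 5.7e-06). Both drugs act on the proteins, so these levels do not check the labels. An OGT detained intron (bin E005) held 0.523 ± 0.191% of the gene's counts with OSMI-2 against 3.42 ± 0.654% with DMSO at 2 h (SD, n = 3 each; limma adjusted p = 4.49e-05). At 6 h it held 0.803 ± 0.504% (SD, n = 2) against 5.95 ± 0.875% (n = 3). In the OSMI-2 experiment detained introns held 0.756% to 1.21% of all counts in the DMSO 6 h libraries and 0.232% to 0.328% in its other libraries, so the DMSO 6 h libraries stood apart from the rest of that experiment.

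Most of the genes were well measured. A mean of at least 50 counts per library was reached by 38 of the 46 genes. The other 8 were ALG11, B3GNT2, B3GNT4, B3GNT5, B3GNT8, GALNT3, GALNT9 and MGAT3, and of these MGAT3, B3GNT4 and B3GNT8 passed the filter on low counts in no drug comparison. Several low values rest on short models: the tables give B3GNT2 228 bases, B3GNT4 120 bases and ALG11 187 bases, against 4605 bases for GALNT2. For 6 members another gene on the opposite strand overlaps (ALG1, ALG3, B3GNT5, B4GALT3, GALNT6 and MGAT4B), and ALG10 and ALG10B are near-identical copies. Strand use in counting is not given in the sources used here, so the values of those genes are uncertain.

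Levels were compared between genes as CPM per kilobase of the bins outside detained introns. In the DMSO 2 h libraries of the OSMI-2 experiment MGAT4B, which adds a branch to the core of complex N-glycans, was the highest member at 58.9 ± 6.84 CPM per kilobase (SD, n = 3), above the next gene in every library. B4GALT2 (43.6 ± 6.67) and B4GALT3 (41.7 ± 3.36), which add galactose, GALNT2 (39.9 ± 1.52), which starts mucin-type O-glycans, ALG3 (39.0 ± 4.55), the first mannosyltransferase of the lumen, and ALG8 (34.5 ± 6.65), which adds glucose, followed on the same scale. Each of these 5 overlapped its neighbour in that order, and ALG8 lay above the seventh gene, B4GALT7 (22.3 ± 3.86), in every library. Per kilobase GALNT3 and GALNT9 had the lowest values in both experiments, at no more than 0.0373 on average, over 11898 and 138520 bases in the tables. As CPM without division by length, B3GNT8 (0.0272) and MGAT3 (0.0278) were below GALNT9 (0.0793) and GALNT3 (0.125) in the OSMI-2 experiment.

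The order was different in the DMSO 2 h libraries of the TMG experiment. ALG5, which makes the dolichol-linked glucose donor, was highest there at 79.8 ± 5.65 CPM per kilobase (SD, n = 3), then ALG8 (52.8 ± 3.73), and each lay above its next neighbour in every library. GALNT1 (45.2 ± 1.42), GALNT2 (42.9 ± 1.11) and MGAT4B (39.8 ± 2.52) came next and overlapped in that order. The experiments hold separate libraries whose tables were scaled separately, so these levels stand side by side without a test. Of the 38 members with a mean of at least 50 counts, 26 had every DMSO 2 h library of the TMG experiment above every one of the OSMI-2 experiment, 8 had every one below and 4 overlapped.

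**Figure D1:**
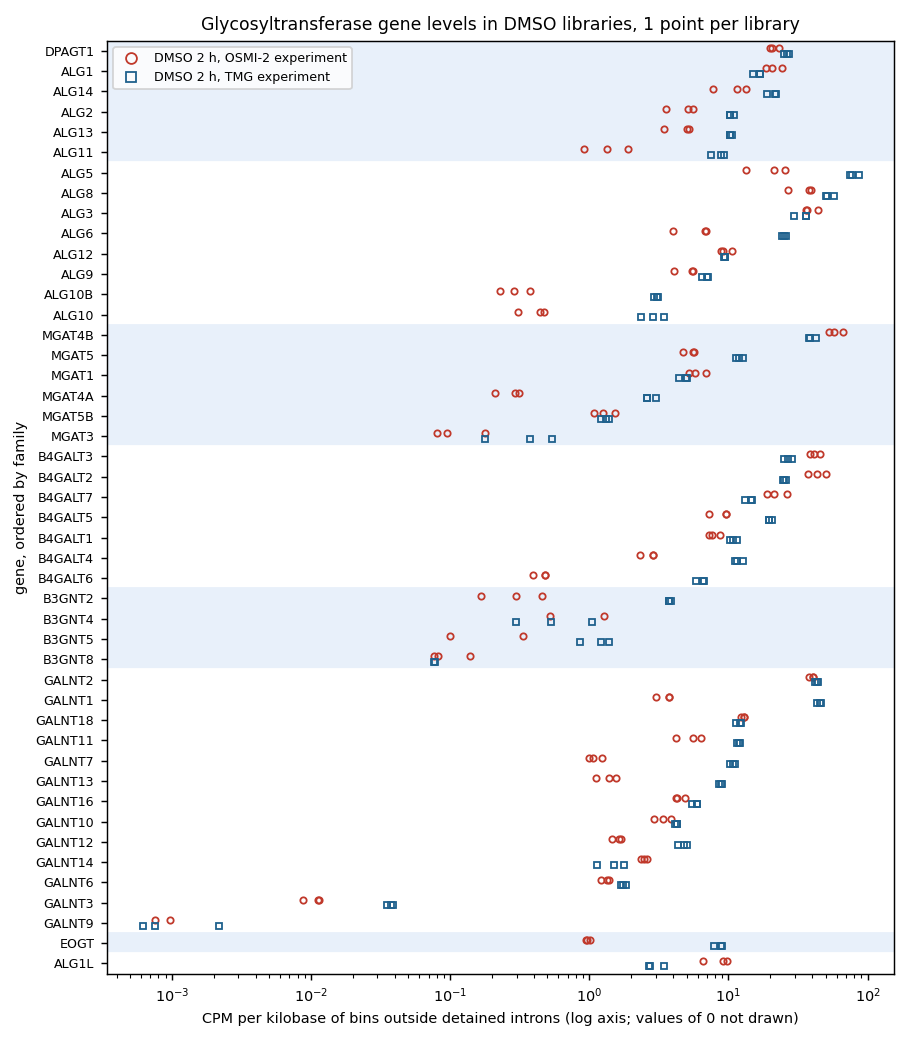
Level of each of the 46 genes in the DMSO 2 h libraries, as CPM per kilobase on a log axis, with 1 point per library (circles, OSMI-2 experiment; squares, TMG experiment) and genes grouped by family. MGAT4B leads in the OSMI-2 experiment at 58.9 and ALG5 in the TMG experiment at 79.8, and GALNT1, GALNT7, MGAT4A, B4GALT6 and EOGT lie far apart between the experiments.

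The gap was widest for B4GALT6, a lactosylceramide synthase, with means of 2.18 CPM in the OSMI-2 experiment and 30.7 CPM in the TMG experiment, a ratio of 14.1. GALNT1 (12.9), ALG10B (10.2), MGAT4A (10.0), GALNT7 (9.81) and EOGT (8.78) followed by the same ratio, whereas GALNT2 (1.07) was almost level and MGAT4B (0.678), B4GALT2 (0.579) and ALG1L (0.345) were lower in the TMG experiment. Across the 38 genes the log2 ratio followed GC content (Pearson -0.785, Spearman -0.799; genes share the libraries and are no replicates). The slope of log2 CPM on GC content over all genes ran from 0.806 to 1.13 in the OSMI-2 experiment's DMSO 2 h libraries and from -0.341 to -0.297 in those of the TMG experiment. The part of this GC difference in the gene levels was not tested.

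TMG for 2 h gave the most member genes called among the drug comparisons when each was fitted on its own libraries. This order did not hold in 1 fit of all 23 libraries. Of 42 members tested, 10 were lower (edgeR quasi-likelihood test, adjusted p under 0.05) and 0 were higher, whereas 6.66% of all 12365 genes were called lower, 1.25% higher and 7.91% in either direction. Those 10 were ALG1, ALG3, ALG8, ALG9, ALG12, B4GALT7, GALNT2, MGAT1, MGAT4B and ALG1L, with log2 fold changes from -0.60 to -0.18. The median log2 fold change of the members was -0.103, beside -0.0307 over all genes, and 39 of the 42 were below 0, as were 59.5% of all genes. Every TMG library lay below every DMSO library for 21 of the 42 members and for 18.8% of all genes.

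The lipid-linked part of the pathway held 5 of the 10. On the cytosolic face 1 of 6 genes fell: ALG1, which adds the first mannose, stood at 73.5, 71.3 and 69.3 CPM with TMG and at 85.5, 86.3 and 76.8 CPM with DMSO (log2 fold change -0.22, SE 0.0555, edgeR adjusted p = 0.0155). DPAGT1, which opens the pathway by moving GlcNAc-phosphate to dolichol phosphate, had a log2 fold change of -0.14 (adjusted p = 0.117), and its groups did not overlap: 57.7, 57.7 and 53.0 CPM with TMG against 62.4, 64.7 and 58.9 CPM. In the lumen, with ALG5, 4 of 8 genes fell, and the log2 fold changes of all 8 were below 0 (median -0.176).

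Among the mannosyltransferases of the lumen, ALG3 stood at 63.5, 58.8 and 58.0 CPM with TMG and 77.3, 77.0 and 63.1 CPM with DMSO (-0.27, SE 0.065, edgeR adjusted p = 0.0103). ALG9 stood at 40.1, 43.8 and 46.2 CPM against 51.5, 51.1 and 46.8 CPM (-0.20, SE 0.0617, adjusted p = 0.0436). ALG12 stood at 46.6, 40.6 and 39.1 CPM against 50.7, 49.4 and 50.8 CPM (-0.26, SE 0.0625, adjusted p = 0.0108). These enzymes extend the glycan with mannose in turn. The groups of ALG9 and ALG12 did not overlap, while DMSO library c of ALG3 lay just below TMG library a. ALG8, the second glucosyltransferase, stood at 144, 153 and 141 CPM with TMG against 179, 160 and 158 CPM with DMSO without overlap (-0.19, SE 0.0543, adjusted p = 0.0323). ALG6, which adds the first glucose, and ALG10, which adds the last, were not called.

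The Golgi families gave fewer calls. Of 5 MGAT genes tested 2 fell. MGAT1, which opens the branching of complex N-glycans, stood at 62.4, 56.9 and 58.2 CPM with TMG and at 70.6, 71.8 and 63.0 CPM with DMSO (-0.21, SE 0.0585, edgeR adjusted p = 0.0239). MGAT4B stood at 131, 118 and 120 CPM against 149, 135 and 133 CPM (-0.18, SE 0.0547, adjusted p = 0.0459). In both genes every TMG library lay below every DMSO library.

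Of 7 B4GALT genes 1 fell: B4GALT7, which adds the first galactose of the linker that joins glycosaminoglycan chains to proteoglycans. It stood at 30.0, 31.5 and 29.2 CPM with TMG and 38.5, 37.7 and 34.1 CPM with DMSO, without overlap (-0.28, SE 0.0634, edgeR adjusted p = 0.0068). Of 12 GALNT genes tested 1 fell, GALNT2, at 175, 168 and 173 CPM against 199, 202 and 192 CPM, also without overlap (-0.20, SE 0.049, adjusted p = 0.0107). The log2 fold changes of all 12 GALNT genes and all 7 B4GALT genes were below 0, with medians of -0.119 and -0.0994.

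ALG1L had the largest change of the 10 genes and the lowest level, at 1.95, 1.58 and 1.40 CPM with TMG and 2.90, 2.29 and 2.27 CPM with DMSO (-0.60, SE 0.167, edgeR adjusted p = 0.026). Its reads may be shared with ALG1, so its value is uncertain. EOGT showed no call, with 15.3, 13.4 and 16.6 CPM with TMG and 14.6, 16.2 and 16.7 CPM with DMSO (-0.07, adjusted p = 0.669). The 2 B3GNT genes tested were not called either, and B3GNT2, at under 1 CPM in all 6 libraries, had a log2 fold change of -0.30 (adjusted p = 0.475).

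The 10 calls rested on small differences. Leaving out 1 library gave 0 calls without TMG library c (2.31% of all genes then called in either direction). The count was 1 without TMG library b, 10 without TMG library a, and 6, 7 and 12 without DMSO libraries a, b and c. Scaling on genes alone gave 6, with 4.21% of all genes then called lower and 6.21% in either direction. A fit of all 23 libraries gave 0. Across the 38 well-measured members the log2 fold change went down with GC content (Pearson -0.427, Spearman -0.491). With the GC trend of each library removed these were 0.135 and 0.253 and 12 members were called lower, 7 of them among the 10. The share of all genes was not set beside that count, nor beside those without the other single libraries. Those counts are therefore no result about the members. Detained introns held 0.475% to 0.543% of all counts with TMG and 0.377% to 0.443% with DMSO, and the part of this in the gene differences was not tested.

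**Figure D2:**
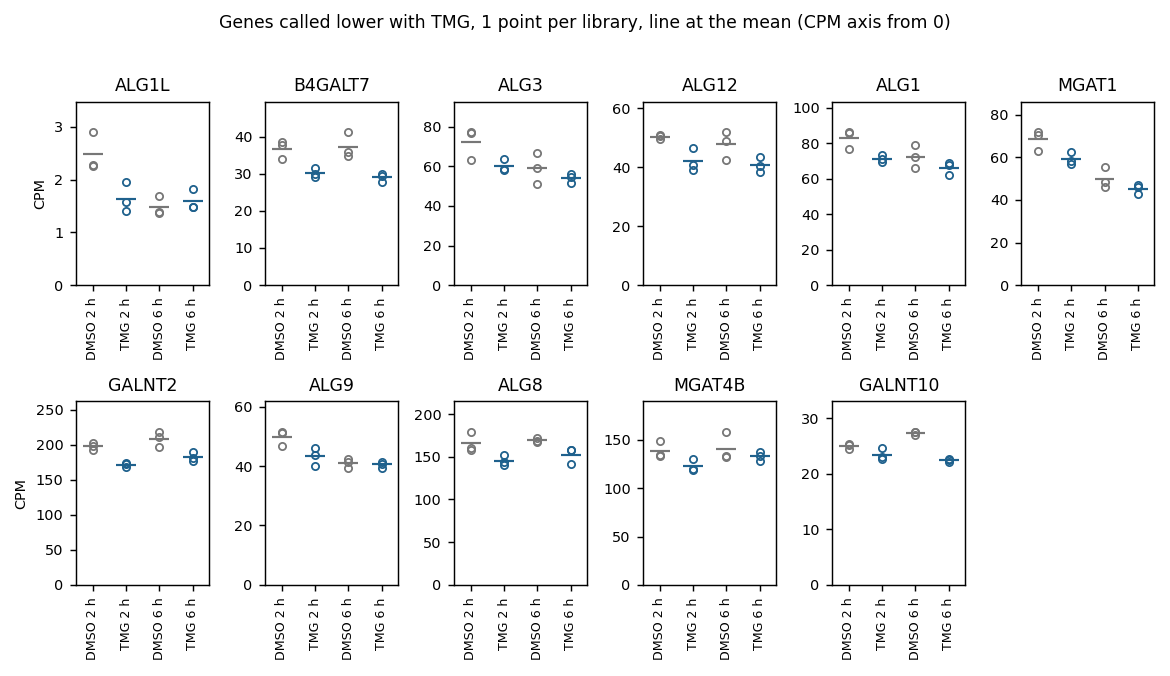
CPM of the 10 genes called lower after TMG for 2 h, and of GALNT10, called at 6 h, in the 12 libraries of the TMG experiment (points, libraries; lines, means; axes from 0). TMG 2 h libraries lie below DMSO 2 h libraries without overlap in the 10 genes except ALG3, while at 6 h B4GALT7 and GALNT10 are the 2 genes called, with TMG libraries at 27.8 to 29.9 and 22.2 to 22.7 CPM.

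The sequence before their start sites was read from RefSeq, build GRCh38.p14 (the count tables are on hg19). The table has an entry for 37 of the 46 members and for 9 of the 10 genes called lower. In the 250 bases before each start, on both strands, the GC box GGGCGG was found in 33 of the 37 genes and in all 9 of those, against 46.2% of 27305 genes in the table. Genes with several starts have several windows: 61 for the 37 genes, 20 for the 9 and 35116 for all genes. Counted per window, the GC box was in 63.9% of the members' windows, 60.0% of those of the 9 genes and 42.6% of all. The CCAAT box (CCAAT) was found in 15 of the 37 and 5 of the 9, against 37.0% of all genes, and per window in 24.6% and 25.0% against 32.0%, so its direction depends on the counting. The endoplasmic reticulum stress element, here CCAAT and CCACG with 9 bases of any kind between them, which overlaps the CCAAT box, was found in 1 of the 37 genes, ALG12, against 0.0916% of all genes, and the Golgi stress element ACGTGGC in B4GALT2 and MGAT1 (5.41% of the 37, against 3.42%). The 27305 genes were not limited to the 13236 gene groups counted here, so they are no matched background for the members. A match is a description of the letters and not a site.

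The 200 bases before the start of the 4 fallers that have a single start in the table are printed to show how the windows differ, 5′ to 3′ on the gene's strand, with matches to these motifs in capitals. A match that overlaps an earlier match to the same motif was not marked or counted. ALG12 lies at chr22:49918439-49918638 (minus strand, 77.0% GC), ALG8 at chr11:78139627-78139826 (minus strand, 62.5% GC), B4GALT7 at chr5:177599932-177600131 (plus strand, 78.5% GC) and GALNT2 at chr1:230067038-230067237 (plus strand, 83.5% GC).
ALG12: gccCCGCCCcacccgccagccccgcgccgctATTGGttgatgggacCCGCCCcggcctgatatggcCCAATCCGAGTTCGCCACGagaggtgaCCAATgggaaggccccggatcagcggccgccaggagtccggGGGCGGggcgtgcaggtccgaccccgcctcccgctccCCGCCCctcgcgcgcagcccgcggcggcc
ALG8: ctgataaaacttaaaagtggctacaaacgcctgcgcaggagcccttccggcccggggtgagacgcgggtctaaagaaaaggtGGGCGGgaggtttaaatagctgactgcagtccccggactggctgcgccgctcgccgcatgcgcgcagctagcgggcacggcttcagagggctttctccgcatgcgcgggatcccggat
B4GALT7: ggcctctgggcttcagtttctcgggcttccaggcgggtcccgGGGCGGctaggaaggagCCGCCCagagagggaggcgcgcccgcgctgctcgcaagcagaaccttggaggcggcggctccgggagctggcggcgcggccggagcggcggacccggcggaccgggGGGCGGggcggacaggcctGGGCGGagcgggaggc
GALNT2: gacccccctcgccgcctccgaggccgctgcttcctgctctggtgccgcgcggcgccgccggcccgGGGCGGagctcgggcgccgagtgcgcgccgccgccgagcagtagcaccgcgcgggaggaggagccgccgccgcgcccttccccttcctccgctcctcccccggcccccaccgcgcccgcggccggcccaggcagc
ALG12 holds 8 matches, among them the stress element 134 bases before the start, B4GALT7 holds 4 GC boxes that do not overlap, and ALG8 and GALNT2 hold 1 GC box each in this stretch. In B4GALT7 a further GC box overlaps the end of the one at 35 bases before the start and was not counted.

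After TMG for 6 h, 2 of 41 members tested were lower and 0 were higher, while 4.9% of 12090 genes were called lower, 1.2% higher and 6.1% in either direction. B4GALT7 stood at 29.9, 29.3 and 27.8 CPM with TMG and 41.2, 35.8 and 34.8 CPM with DMSO (log2 fold change -0.36, SE 0.0786, edgeR adjusted p = 0.0137). GALNT10, another starter of O-glycans, stood at 22.7, 22.2 and 22.5 CPM against 27.4, 27.0 and 27.5 CPM (-0.28, SE 0.073, adjusted p = 0.0302). In both genes the groups were well apart, and B4GALT7 was the 1 member called at both times.

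The median log2 fold change of the members was -0.0832 at 6 h, beside -0.0256 over all genes. Log2 fold changes were below 0 in 29 of 41, beside 57.0% of all genes, and every TMG library lay below every DMSO library in 10 of 41, beside 17.7% of all genes. GALNT2 (-0.19, edgeR adjusted p = 0.0693), GALNT11 (-0.22, 0.0614) and ALG8 (-0.15, 0.155) did not pass the test. The change of the TMG effect from 2 h to 6 h was called in 0 of 42 members (0.0161% of all genes higher, 0.00806% lower and 0.0242% in either direction; 5 members had an unadjusted p under 0.05, and DESeq2 called 0), so the smaller count at 6 h is not shown to be a smaller effect. Both calls were lost without TMG library b and without TMG library c; B4GALT7 alone was left without TMG library a or DMSO library b, and leaving out DMSO library a gave 4. Leaving out DMSO library c gave 3.

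OSMI-2 for 2 h changed 0 of 39 members tested, and 0.0% of 12320 genes were called (edgeR; 2 members had an unadjusted p under 0.05, and DESeq2 called 0 members). Those with the largest changes were 2 genes of low level. B4GALT6 stood at 2.45, 4.39 and 3.49 CPM with OSMI-2 and 1.88, 2.33 and 2.32 CPM with DMSO (log2 fold change 0.66, SE 0.233, adjusted p = 1.0), and ALG10, the last glucosyltransferase of the lumen, at 0.438, 0.559 and 0.372 CPM against 0.272, 0.294 and 0.190 CPM (0.88, SE 0.32, adjusted p = 1.0). In these 2 genes every OSMI-2 library lay above every DMSO library, as in 2.46% of all genes. ALG10B, its near copy, was at 0.08 (adjusted p = 1.0), EOGT at 0.02, DPAGT1 at 0.09 and ALG5 at -0.32.

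After OSMI-2 for 6 h no member passed the test: 0 of 41, while 4.87% of 12486 genes were called in either direction, 2.5% higher and 2.37% lower (7 members had an unadjusted p under 0.05, and DESeq2 called ALG1L). The standard errors were several times those of the TMG comparisons, from 3 DMSO libraries that differed among themselves and 2 OSMI-2 libraries. Log2 fold changes were above 0 in 18 members and below 0 in 23 (56.1%, beside 39.7% of all genes), with a median of -0.0718 beside 0.148 over all genes. Scaling on genes alone moved the median of all genes to -0.088 and that of the members to -0.307, and DESeq2 moved them to 0.301 and 0.0728, so the sign of the members' median depends on the scaling, and it was below that of all genes under these 3 scalings.

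Galactosyltransferases were among both the highest and the lowest. B4GALT2 stood at 173 and 190 CPM with OSMI-2 and at 65.7, 121 and 120 CPM with DMSO (log2 fold change 0.83, SE 0.304, edgeR adjusted p = 0.0849). B4GALT3 stood at 229 and 242 CPM against 117, 186 and 186 CPM (0.53, adjusted p = 0.293), and B4GALT7 at 73.8 and 87.2 CPM against 39.3, 59.6 and 61.0 CPM (0.59, adjusted p = 0.208). B4GALT5, which like B4GALT6 makes lactosylceramide, stood on the other side at 60.9 and 49.7 CPM against 82.1, 88.5 and 95.4 CPM (-0.68, adjusted p = 0.155). In all 4 genes the groups did not overlap, and in the first 3 DMSO library a lay far below DMSO libraries b and c.

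Elsewhere in the pathway, ALG1L stood at 7.89 and 8.12 CPM with OSMI-2 and 2.56, 4.79 and 4.44 CPM with DMSO (1.03, SE 0.364, edgeR adjusted p = 0.0735). MGAT4B stood at 274 and 306 CPM against 130, 219 and 231 CPM (0.59). ALG8 stood at 98.02 and 70.1 CPM against 137, 119 and 169 CPM (-0.75, SE 0.31, adjusted p = 0.124). GALNT12 stood at 4.54 and 4.29 CPM against 9.99, 6.39 and 6.85 CPM (-0.81, SE 0.375, adjusted p = 0.174). None of these 4 groups overlapped. Over the members 8 had every OSMI-2 library above every DMSO library and 7 had every one below, beside 32.1% and 15% of all genes.

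Among the libraries left out 1 at a time, only DMSO library a changed the count. Without it 34.2% of all genes were called higher, 8.22% lower and 42.4% in either direction. Among the members 14 then passed, 8 higher and 6 lower. The 8 were ALG1L (0.84), B4GALT2 (0.64), B4GALT3 (0.39), B4GALT7 (0.46), MGAT4A (0.55), MGAT4B (0.41), GALNT7 (1.11) and GALNT13 (0.67), and the 6 were ALG8 (-0.72), B4GALT5 (-0.68), DPAGT1 (-0.47), GALNT9 (-1.70), GALNT12 (-0.54) and GALNT14 (-0.54) on the log2 scale. The GC slope of that library was 0.374, beside 1 to 1.12 in the other 4, and across the 38 well-measured members the log2 fold change rose with GC content (Pearson 0.468, Spearman 0.487). With the GC trend removed 7 members passed, against 31.6% of all genes. The part of GC content and of this library in the gene differences beyond these fits was not tested.

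**Figure D3:**
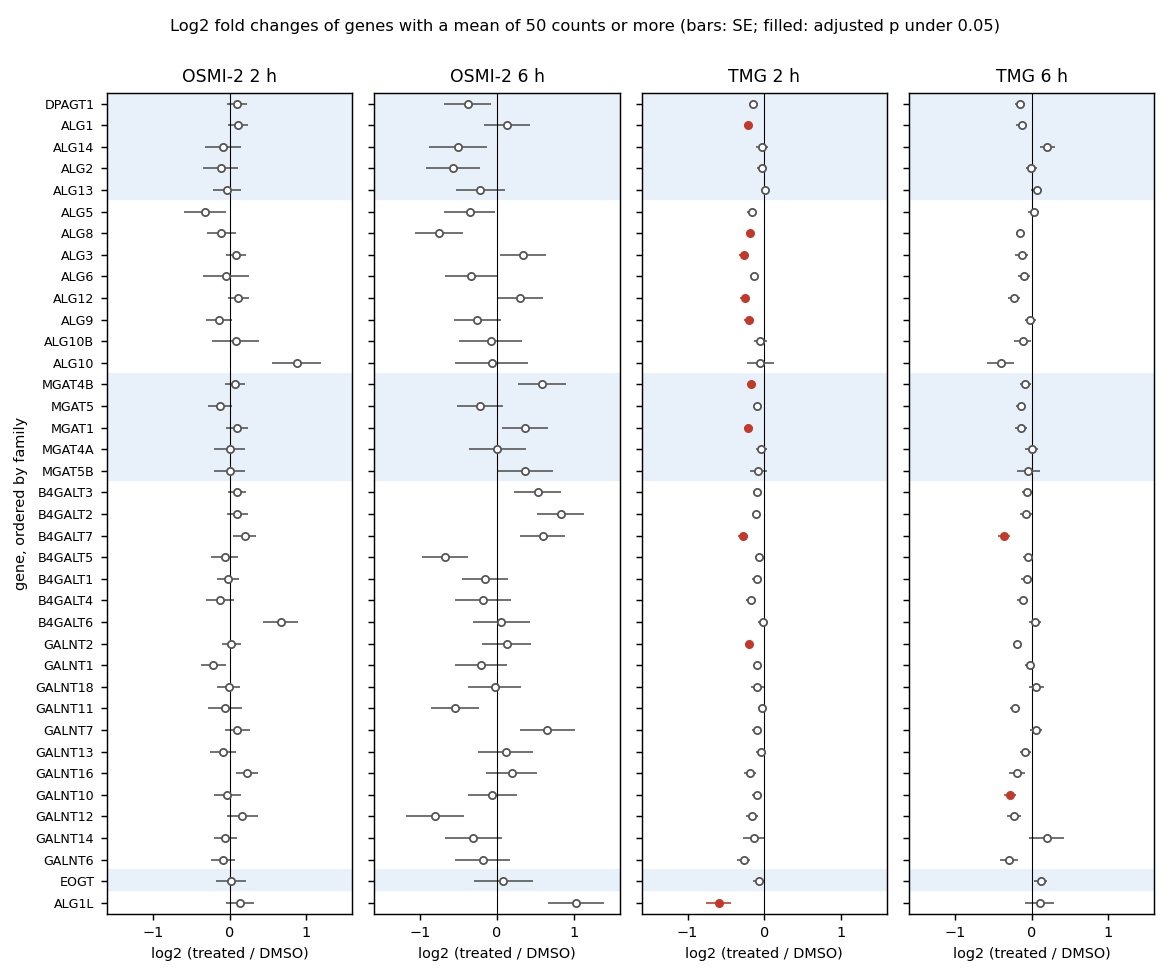
Log2 fold change of drug over DMSO with its standard error for the 38 members with a mean of at least 50 counts, in the 4 drug comparisons, with genes grouped by family and filled points for an edgeR adjusted p under 0.05. The TMG points lie close to 0 with short bars and 10 filled points at 2 h, while the OSMI-2 6 h points spread from -0.81 to 1.03 with long bars and none filled.

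The effects of the drugs were compared directly in a fit of both experiments. At 6 h, 3 of 43 members had a higher log2 fold change with OSMI-2 than with TMG and 0 a lower one, while 16.9% of 12577 genes were called higher, 2.98% lower and 19.9% in either direction. They were B4GALT7 (difference 1.11, SE 0.267, edgeR adjusted p = 0.0169), B4GALT2 (1.06, SE 0.302, adjusted p = 0.0279) and ALG1L (1.08, SE 0.334, adjusted p = 0.0361). For B4GALT7 the effects were 0.59 with OSMI-2 and -0.36 with TMG in their own comparisons. The members' median difference was 0.13 and that of all genes 0.357. The count was 0 without OSMI-2 library b, TMG library b or c, or DMSO library a of the TMG experiment, 1 without OSMI-2 library a, TMG library a or DMSO library c of the TMG experiment, and 31, 7 and 5 without DMSO libraries a, b and c of the OSMI-2 experiment. DESeq2 gave 18. At 2 h, 0 of 42 members were called (0.0% of all genes; 8 members had an unadjusted p under 0.05, and DESeq2 called 0). The change of the OSMI-2 effect from 2 h to 6 h was called in 0 of 41 (0.0159% of all genes higher, 0.0953% lower and 0.111% in either direction; 5 with an unadjusted p under 0.05).

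The DMSO libraries themselves differed between 2 h and 6 h. In the TMG experiment 21 of 42 members were called, 4 higher and 17 lower at 6 h, beside 45.9% of 12294 genes in either direction, 16.3% higher and 29.6% lower. Leaving out DMSO 6 h library c gave 13 calls. MGAT5B, a branching enzyme of O-mannose glycans, went from 6.22, 5.40 and 5.84 CPM at 2 h to 2.60, 2.34 and 2.28 CPM at 6 h (-1.31, edgeR adjusted p = 4.43e-08). GALNT14 went from 4.85, 4.09 and 3.10 CPM to 1.69, 1.504 and 1.94 CPM (-1.27, adjusted p = 3.05e-06), and B4GALT6 from 27.9, 31.8 and 32.2 CPM to 38.1, 47.2 and 44.6 CPM (0.46, adjusted p = 0.000143). These times did not overlap in any of the 3 genes. Of the genes lower with TMG at 2 h, 5 were also lower in DMSO at 6 h than at 2 h: ALG1 (-0.23), ALG3 (-0.33), ALG9 (-0.32), MGAT1 (-0.49) and ALG1L (-0.78); both comparisons use the same DMSO 2 h libraries.

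In the OSMI-2 experiment 4 of 39 members differed between the DMSO groups, beside 18.5% of 12356 genes, 4.62% higher and 13.9% lower. B4GALT5 (0.68, edgeR adjusted p = 0.048) and B4GALT6 (0.89, adjusted p = 0.0395) were higher at 6 h, and B4GALT2 (-0.83, adjusted p = 0.0314) and ALG1L (-1.28, adjusted p = 0.006) were lower. In the comparison of OSMI-2 with DMSO at 6 h, which uses the same DMSO 6 h libraries, B4GALT5 was at -0.68, B4GALT2 at 0.83 and ALG1L at 1.03. The count was 0 without DMSO 2 h library a or c, 1 without DMSO 2 h library b, 2 without DMSO 6 h library b and 11 without DMSO 6 h library a.

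Detained introns of the members differed after OSMI-2 for 6 h. Their 15 bins are in ALG1, ALG5, ALG6, ALG9, ALG13, EOGT, GALNT10 to GALNT13, GALNT16 and MGAT5, and span 617 to 42270 bases apart from a bin of 4 bases in ALG1 that carries another class too. Of 14 tested after OSMI-2 for 6 h, 11 were lower and 0 higher, against 86.4% of 4684 introns lower, 0.555% higher and 86.9% in either direction, so the members' share was near that of all introns. Relative to the counts of their gene, 12 of 13 were lower (limma, adjusted p under 0.05), against 89.2% of 4616 lower, 0.217% higher and 89.4% in either direction.

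By intron counts the lowest log2 fold changes were in ALG13, and relative to the gene the lowest was that of the EOGT intron (-2.66, against -2.42 and -2.38 for the ALG13 bins E034 and E010). ALG13 is the subunit that, with ALG14, adds the second GlcNAc to dolichol. Its intron bin E034 (hg19 chrX:110996059-111000815, plus strand) held 2.99%, 4.64% and 3.20% as many counts as the gene in DMSO 6 h libraries and 0.766% and 0.502% with OSMI-2 (intron log2 fold change -2.69, SE 0.426, edgeR adjusted p = 4.14e-09). Its bin E010 (chrX:110952277-110954902) held 4.68%, 6.37% and 3.92% with DMSO and 0.830% and 0.965% with OSMI-2 (-2.63, SE 0.384, adjusted p = 2.32e-10). The DMSO 6 h libraries were high in both introns and did not overlap the OSMI-2 libraries. In bin E010 both OSMI-2 libraries lay above the 0.403%, 0.770% and 0.445% of DMSO at 2 h. In bin E034 they overlapped DMSO at 2 h, which held 0.336% to 0.623%.

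The other tested introns of the lipid-linked pathway were lower too. Their falls were smallest in ALG6 bin E011 (log2 fold change -1.39, edgeR adjusted p = 0.000886) and ALG1 bin E012 (-1.55, 0.00758). ALG6 bin E015 (hg19 chr1:63885112-63894403, plus strand) held 6.57%, 9.05% and 3.35% of the gene's counts with DMSO and 1.15% and 2.08% with OSMI-2 (-2.19, SE 0.392, edgeR adjusted p = 1.71e-07). ALG5 bin E003 held 6.12%, 8.54% and 3.36% against 1.49% and 1.76% (-2.13), and ALG9 bin E017 (chr11:111728461-111730885, minus strand) held 3.89%, 2.00% and 1.97% against 0.603% and 0.936% (-1.98). EOGT bin E003 (chr3:69028939-69031961, minus strand) held the greatest share, 16.7%, 22.1% and 27.8% with DMSO against 2.4% and 3.5% with OSMI-2 (-2.62, adjusted p = 5.61e-06), from only 3 and 7 counts in the OSMI-2 libraries. GALNT11 bin E010 (0.12, adjusted p = 0.83), GALNT13 bin E009 (-0.87, 0.0707) and MGAT5 bin E016 (-0.92, 0.108) were not called.

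Summed over the members' detained introns, the share of the counts of their genes was 3.14 ± 0.92% in DMSO 6 h libraries of the OSMI-2 experiment (SD, n = 3) and 1.11 ± 0.353% with OSMI-2 (n = 2). It was 0.911 ± 0.0768% with DMSO and 1.03 ± 0.153% with OSMI-2 at 2 h (n = 3 each). From 2 h to 6 h in DMSO 11 of 13 introns were higher (edgeR), beside 88.5% of 4527. By summed share the DMSO 6 h libraries lay above all other groups of the experiment. At 2 h OSMI-2 changed 0 of 7 introns tested (0.131% of 3043; 1 had an unadjusted p under 0.05) and 0 of 7 relative to the gene (0.0643%; 0 with an unadjusted p under 0.05). Scaling on introns alone, which sets the typical intron to no change, gave 3 calls at 6 h, and leaving out OSMI-2 library a gave 7.

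**Figure D4:**
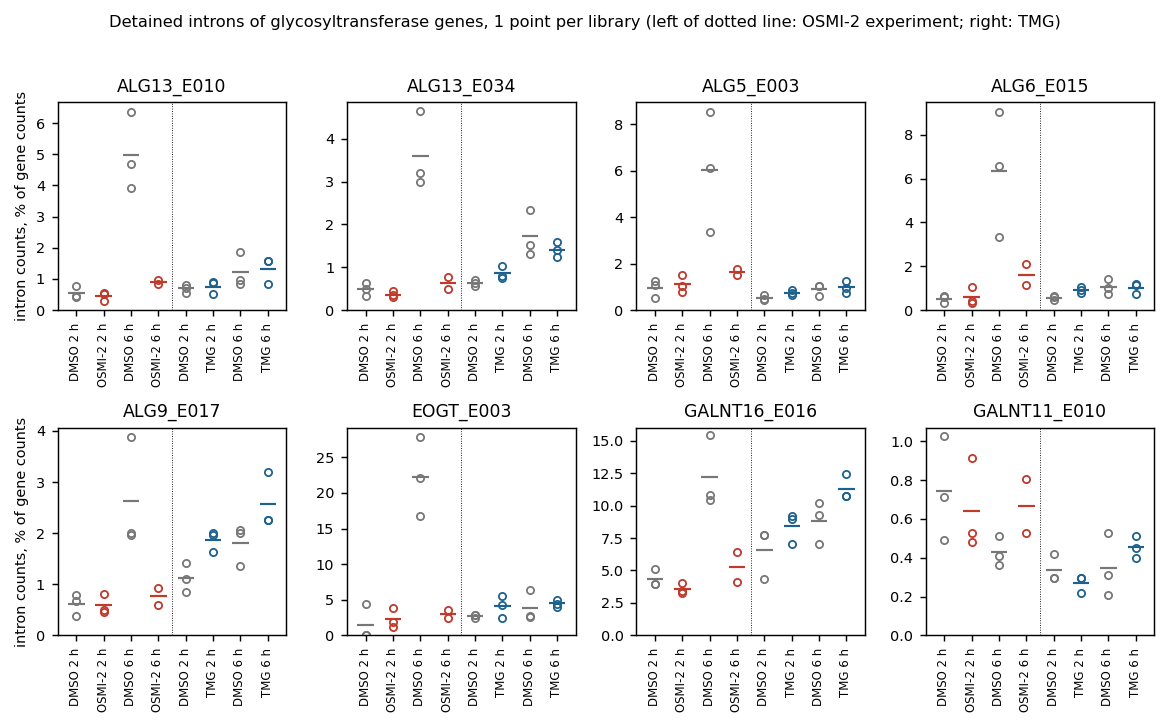
Counts of 8 detained introns as a percent of the counts of their gene in the 23 libraries (points, libraries; lines, means; axes from 0; OSMI-2 experiment left of the dotted line, TMG experiment right). DMSO 6 h libraries of the OSMI-2 experiment lie above its other groups in ALG13, ALG5, ALG6 (bin E015), ALG9, EOGT and GALNT16. The GALNT11 intron does not show this. Several introns not drawn overlap other groups too. ALG6 bin E011 lay at 2.84% to 4.58% with DMSO for 6 h and at 0.944% to 4.88% with OSMI-2 for 2 h. GALNT13 bin E009 lay at 2.99% to 5.23% and 4.09% to 6.53%.

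With TMG for 2 h, 0 of 11 introns of the members were called (9.75% of 4061 higher and 9.87% in either direction; 3 members had an unadjusted p under 0.05), and 10 of 11 had a log2 fold change above 0, while 15.4% of all introns were below 0. By intron counts the members' median log2 fold change was 0.177, beside 0.288 over all introns. Relative to the gene the members' median was 0.388, beside 0.302 over all introns, so the order depends on the measure. Relative to the gene 1 of 11 was higher, beside 10.2% of 4031 higher and 0.0496% lower: ALG9 bin E017, at 2.01%, 1.97% and 1.64% with TMG and 0.857%, 1.42% and 1.10% with DMSO (0.74, SE 0.232, limma adjusted p = 0.0355). Its counts were 39, 41 and 38 against 21, 41 and 24, and ALG9 itself was among the genes that fell. Its limma adjusted p ran from 0.0222 to 0.161 over 9 alternatives, of which 6 ended the call, among them leaving out DMSO library a or c or TMG library a or b. The summed share was 1.61 ± 0.0907% with TMG and 1.41 ± 0.118% with DMSO (SD, n = 3), without overlap. At 6 h, 0 of 12 were called (0.191% of 4186; 0 with an unadjusted p under 0.05) and 0 of 12 relative to the gene (0.191%; 1 with an unadjusted p under 0.05), with summed shares of 2.12 ± 0.265% and 1.86 ± 0.128% (SD, n = 3), which overlapped.

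The authors' deposited table of bin usage, which compares the share of each bin in its gene, shows other bins changing after OSMI-2 for 6 h. By the authors' adjusted p, 22 of 466 member bins outside detained introns in 11 genes were called, 11 higher and 11 lower. Of all 147825 such bins 4.08% were called, so the members' share was near that of all bins. In the other 3 comparisons the authors' deposited table calls 0 of 485 (OSMI-2 2 h), 0 of 437 (TMG 2 h) and 0 of 290 (TMG 6 h), beside 0.00893%, 0.14% and 0.0565% of all bins. Of the 15 detained introns 8 were called there at OSMI-2 6 h, beside 80.5% of 4739.

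ALG13 had the most, 6 bins. In the authors' deposited table its first bins E001 (log2 0.78, adjusted p = 2.93e-06), E003 (0.99, 2.52e-10) and E004 (0.89, 2.66e-12) were higher with OSMI-2, as were E002 and E006, and bin E014, an alternative splice-site bin, was lower (adjusted p = 0.0121), from 0 and 1 counts with OSMI-2 against 10, 5 and 5 with DMSO. From the counts, bins E001 to E006 held 22.8% and 25.2% of the ALG13 counts outside detained introns with OSMI-2 for 6 h and 13.0%, 13.1% and 14.1% with DMSO. In every other group the share was 27.8% to 36.2%, so the DMSO 6 h libraries of the OSMI-2 experiment were the lowest of the 8 groups and the OSMI-2 6 h libraries lay between them and the rest. The level of ALG13 as a whole did not pass the test in that comparison (log2 fold change -0.22, edgeR adjusted p = 0.722).

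**Figure D5:**
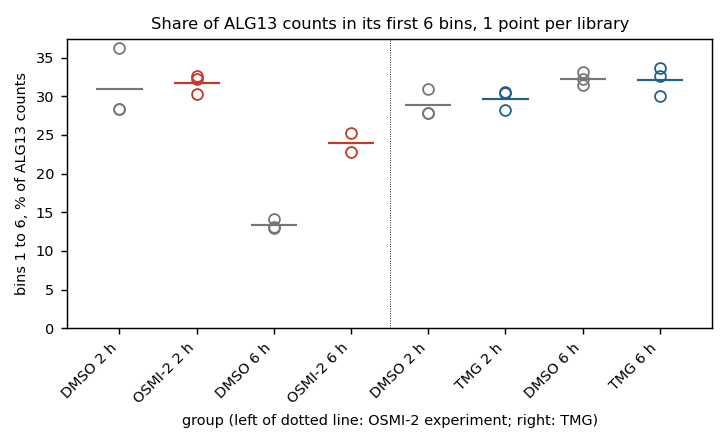
Share of the ALG13 counts that fall in its first 6 bins, in percent, for each library in the 8 groups (points, libraries; lines, means; axis from 0; OSMI-2 experiment left of the dotted line). DMSO 6 h libraries of the OSMI-2 experiment lie at 13.0% to 14.1%, OSMI-2 6 h libraries at 22.8% and 25.2%, and the others between 27.8% and 36.2%.

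MGAT4B had 5 called bins in the authors' deposited table. Bin E014 (hg19 chr5:179229256-179230030, minus strand) was lowest (log2 -1.12, adjusted p = 0.000169) and held 1.01% and 1.07% of the gene's counts with OSMI-2 against 3.04%, 2.23% and 1.85% with DMSO. Bin E010, of 47 bases, held 3.67% and 3.77% against 5.04%, 4.75% and 4.82%. B4GALT7 had 3 called bins, all lower in the authors' deposited table: E005 held 0.255% and 0.323% of the gene's counts against 1.41%, 1.39% and 0.836%, and E002 held 0.312% and 0.323% against 1.22%, 0.694% and 0.867%. In each of these 4 bins the OSMI-2 libraries lay below all DMSO libraries.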

How the data were processed

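Polyadenylated RNA of HEK293T cells was sequenced in 23 libraries (39465746 to 100161560 counts). The authors deposited 1 table per drug and time with whole-number counts per bin. Per the file headers the same tables give bin usage between drug and DMSO in DEXSeq's layout, as a log2 fold and a p-value before and after adjustment. STAR and hg19 are named, without roles, in the submitters' processing notes. The counter, the annotation and strand use are not given in the sources used here. No count column was left unused. Index-read files were not used.

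Counts were summed per gene, leaving detained-intron bins out. Genes and introns were tested apart, over all features that passed filterByExpr, with edgeR 4.0.16 (glmQLFit and glmQLFTest, TMM over genes and introns, library size the table total) in R 4.3.3, two-sided, Benjamini-Hochberg, threshold 0.05. Drug differences were interaction terms. Introns relative to the gene used limma 3.58.1 (trend on the mean log2 count) on log2 of intron plus 1 over gene plus 1, where intron and gene averaged 10 counts or more. Scripts were tested on simulated data. DESeq2 1.42.0 and the other alternatives are in the closing section. The design assumed 3 OSMI-2 6 h libraries where 2 were used.

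Members, families, lists and tests were chosen with earlier results of these data known. Named genes are members past the threshold in a drug comparison, the highest of each family, EOGT, DPAGT1, ALG10 and ALG10B, or, where none passed, the 3 largest changes among members with a mean of at least 50 counts; at most 3 falls and 3 rises of introns averaging 20 counts or more; and introns past the threshold relative to their gene. Any other gene, intron or bin in the text was picked with its values in view.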

Additional observations from a re-analysis of the deposited data

Results flagged for a closer look

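In 3 members the effect of OSMI-2 at 6 h differed from that of TMG at 6 h by a test of the difference itself (edgeR interaction term, adjusted over all genes). They were 3 of 43 tested, while 19.9% of 12577 genes were called, 16.9% higher and 2.98% lower, so the members' share was below that of all genes. The difference on the log2 scale, OSMI-2 minus TMG, was 1.11 for B4GALT7 (adjusted p = 0.0169), 1.08 for ALG1L (adjusted p = 0.0361) and 1.06 for B4GALT2 (adjusted p = 0.0279). The count of 3 became 0 without OSMI-2 6 h library b, without DMSO library a of the TMG experiment, or without TMG 6 h library b or c, 1 without OSMI-2 library a, TMG library a or DMSO library c of the TMG experiment, 5 or 7 without DMSO library c or b of the OSMI-2 experiment, and 31 without its library a. The shares of all genes called in these fits were not set beside these counts, so they show only how the calls move. The drugs were given to different sets of libraries whose GC slopes were of opposite sign, and drug and experiment enter the difference together.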

How the results depend on the processing

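Over the named genes and introns, 648 alternative values kept direction and side of the threshold, 63 lost the call, 27 gained one and 35 changed sign, all of genes not called before or after. With 1 library left out, log2 fold changes that changed sign ran as follows. With OSMI-2 for 2 h they ran from -0.248 to 0.0191 for ALG8, -0.0626 to 0.0823 for GALNT2, -0.123 to 0.102 for EOGT and -0.228 to 0.279 for ALG10B. With OSMI-2 for 6 h they ran from -0.0355 to 0.285 for ALG1, -0.216 to 0.616 for EOGT, -0.302 to 0.0991 for ALG10 and -0.33 to 0.37 for ALG10B. With TMG for 2 h they ran from -0.139 to 0.0101 for EOGT and -0.184 to 0.0754 for ALG10, and with TMG for 6 h from -0.0958 to 0.02 for B4GALT3 and -0.13 to 0.0112 for MGAT4B. At OSMI-2 2 h the GC trend removed gave -0.0379 for GALNT2 and -0.0259 for MGAT4B, and a GC set as a term 0.0529 for ALG8 and -0.00403 for MGAT4B. At OSMI-2 6 h TMM over genes only gave -0.1 for ALG1, -0.103 for GALNT2 and -0.17 for EOGT, and all bins -0.144 for EOGT. There ALG10 and ALG10B had 0.0709 and 0.0954 with DESeq2, 0.0771 and 0.0948 with median-of-ratios factors, 0.138 and 0.121 in 1 fit of all 23 libraries, and 0.117 and 0.0574 with the GC trend removed. With the letter as a replicate block ALG10 had 0.078, ALG10B 0.0553 and EOGT -0.156.

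Members called with OSMI-2 for 6 h (0) became 1 with DESeq2, 1 with median-of-ratios factors, 1 with TMM over genes only, 13 in 1 fit of all 23 libraries, 7 with the GC trend removed, and 0 to 14 with 1 library left out. Their introns called (11) became 3 with TMM over introns only and 7 to 12 with 1 library left out, and introns relative to the gene (12) became 4 at mean counts of at least 50 and 8 to 12 with 1 library left out. With TMG for 2 h, genes called (10) became 6 with TMM over genes only, 0 in the 23-library fit and 0 to 12 with 1 library left out. Introns (0) became 1 with TMM over introns only and 0 to 1 with 1 library left out. The 1 intron relative to its gene became 0 with a variance trend on the mean log2 ratio (chosen after seeing the data), at mean counts of at least 50 and by the authors' deposited bin usage test, and 0 to 2 with 1 library left out. With TMG for 6 h, genes called (2) became 4 with DESeq2, 0 in the 23-library fit, 6 with the GC trend removed and 0 to 4 with 1 library left out; introns, and introns relative to the gene (0 each), became 0 to 1.

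The difference of the drugs at 6 h (3) became 18 with DESeq2 and 0 to 31 with 1 library left out, that at 2 h (0) 0 to 2 (2 without DMSO library c of the OSMI-2 experiment), and the change of the OSMI-2 effect over time (0) 0 to 2 (2 without DMSO 6 h library a). DMSO 6 h against 2 h gave 0 to 11 genes (4) in the OSMI-2 experiment, and 13 to 23 genes (21) and 2 to 5 introns (4) in the TMG experiment. Columns share letters and not replicate numbers, and the letters are not stated to pair libraries (correlations of same-letter deviations ran from -0.403 to 0.687). With the letter as a replicate block, genes called were 14 (TMG 2 h), 5 (TMG 6 h) and 0 (OSMI-2 at either time), and the 1 intron relative to its gene at TMG 2 h became 0. A GC set as a term, chosen after seeing the data for introns, gave 0 genes and 0 introns at OSMI-2 2 h. Depth limits the introns, several of which had under 10 counts in a library. Shares of all features were not set beside the counts in this section. The counts show how the calls move and are no result about the members.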

Other observations

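Genes that work beside the glycosyltransferases were read as lists chosen with results of these data known, and are described by counts and medians. After TMG for 2 h, 6 of 10 subunits of the oligosaccharyltransferase, which moves the finished glycan to protein, were lower by edgeR's quasi-likelihood test (adjusted p under 0.05): MAGT1 (log2 fold change -0.28), RPN1 (-0.26), DDOST (-0.26), STT3A (-0.26), RPN2 (-0.24) and TUSC3 (-0.17). The median of the 10 was -0.203, beside -0.0307 over all genes, and 6.66% of all genes were called lower. Of 11 genes for glycan trimming and quality control 4 were lower (GANAB, MAN1B1, MOGS and PRKCSH; median -0.0735). Of 11 transporter genes of the SLC35 family, not all of them for nucleotide sugars, 2 were lower (SLC35A2, the UDP-galactose transporter, and SLC35B2, with a median of -0.123 for the 11). Of 16 elongation and capping genes tested 2 were lower (POFUT1 and ST3GAL2, with a median of -0.0824 for the 16). In none of these lists was a gene higher. Of the 6 line markers CDH2 was lower as well (-0.17).

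After TMG for 6 h the counts were 0 of 10 for the oligosaccharyltransferase, 2 of 11 for trimming (MAN1B1, -0.43, and MOGS, -0.28), 2 of 11 for transporters (SLC35A2 and SLC35B3) and 3 of 16 for capping, the sialyltransferases ST3GAL2 (-0.44), ST3GAL4 (-0.36) and ST3GAL5 (-0.37), beside 4.9% of all genes lower. Among the line markers VIM (-0.22) and INA (-0.37) were lower and LIN28B (0.27) higher. After OSMI-2 for 6 h RPN1 (-1.10, edgeR adjusted p = 0.0419) and TUSC3 (-1.07, adjusted p = 0.0316) were lower, 2 of 10, and 0 of the other lists were called, beside 2.37% of all genes lower; the marker NEFM was higher (1.53). After OSMI-2 for 2 h 0 genes of these lists were called, as were 0 of all genes.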
